A study of Mus musculus with 8 samples.

Results

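S100 proteins are small calcium-binding proteins, and 7 of their genes, S100a1, S100a3, S100a4, S100a6, S100a10, S100a11 and S100a13, were followed among the 50600 gene rows of an RNA-seq table. The 7 genes were chosen by name, with results of these same libraries already known, and the values behind that choice were not recorded. S100a3 was by then known as a gene with a large fall when both compounds were given, so its values in that comparison are a description. The adjusted p-values below place each gene in a fit across all genes and are not independent evidence for the choice of the genes.

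The cells were JUN TetON mouse embryonic stem cells (OG2 ES cells of mixed 129SVJ, C57B6 and CBA background, grown without feeders in 2i/LIF), in which doxycycline switches on the transcription factor JUN. Cells of all 4 groups received 2 μg/ml doxycycline, so JUN was induced in every library and no library without induction entered these comparisons. The groups differed in the compound: DMSO (the solvent), PFI-3 (which binds the bromodomain of BRG1, a subunit of BAF chromatin remodelling complexes), BI-9564 (which binds the bromodomains of BRD7 and BRD9) or both together (P+B), for 6 h per the labels. A legend in the study's supplement describes 8 h of JUN induction with 6 h of compound, and the labels do not give the length of induction apart from the compound. Each group had 2 replicate libraries, numbered 1 and 2, and the doses in these libraries are not given in the sources used here. The labels do not say that the replicates were separate cultures, so p-values measure the spread between these libraries, which may be technical.

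The deposited values are TPM, a level scaled to transcript length and to the total of the library, made whole numbers, and the 8 libraries summed to 991574 to 991897. TPM keep no depth, so the counting error of each value is unknown. Between 10285 and 10451 genes reached a value of 5 in a library. Jun itself was at 1569 to 3011. The 10 embryonic stem cell markers were all tested and summed to 3378 to 5302, whereas the 10 fibroblast markers summed to 0 to 5, with 6 of them at 0 in every library.

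An S100 protein carries a pair of EF-hands, loops that hold calcium, and most work as dimers that change shape on calcium binding and then grip a target protein. They have no enzymatic activity of their own and act through partners such as annexins, cytoskeletal proteins and p53. Many S100 genes lie side by side in a cluster that is conserved among mammals. In adult tissues S100a6, S100a10 and S100a11 are known from epithelia and fibroblasts, and S100a4 from motile mesenchymal cells.

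All 7 genes lie on chromosome 3 in GENCODE M21 on GRCm38 (mm10). S100a1 (90511034 to 90514392, minus strand), S100a13 (90514435 to 90524581), S100a3 (90560578 to 90602702), S100a4 (90603771 to 90606045) and S100a6 (90612882 to 90624181) form a run of 113148 bases, the last 4 on the plus strand. S100a11 (93520488 to 93526287) and S100a10 (93555080 to 93564643), both on the plus strand, lie in a run of 44156 bases farther along. The annotated span of S100a3 contains S100a2 on the same strand, so reads of the pair could be shared, and S100a2 was listed at 0 in every library. S100a1 and S100a13 point away from each other with their starts close together.

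RefSeq promoter windows of 300 bases, from 250 bases before to 50 after a start site, were found for 6 of the 7 genes and held 9 start sites. No window was found for S100a10, so its promoter was not read. The windows were read because JUN binds DNA as part of AP-1, whose site has the letters TGANTCA (N is any base). Of these windows only that of S100a11 held TGANTCA, with 2 matches, at -136 and -38 from the start site. None held TGACGTCA, a related site that does not overlap TGANTCA in its letters. Both motifs read the same on either strand. Among all 32851 windows of the same length, 7.81% held TGANTCA, 0.46% held at least 2 matches, and 1.79% held TGACGTCA. The stretches before the first annotated exon are shown for S100a11, the gene with the highest level, and S100a6, which of the 4 tested genes had the lowest p between replicate series. The pair differ in this motif. They are S100a11 at chr3:93520246-93520487 and S100a6 at chr3:90612644-90612881, both GRCm38.p6, plus strand, 5′ to 3′, with TGANTCA in capitals.
S100a11: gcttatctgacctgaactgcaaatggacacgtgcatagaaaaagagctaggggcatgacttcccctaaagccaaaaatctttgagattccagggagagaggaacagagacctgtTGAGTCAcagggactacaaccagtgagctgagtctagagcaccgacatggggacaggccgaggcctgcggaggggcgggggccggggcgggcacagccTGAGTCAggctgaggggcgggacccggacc
S100a6: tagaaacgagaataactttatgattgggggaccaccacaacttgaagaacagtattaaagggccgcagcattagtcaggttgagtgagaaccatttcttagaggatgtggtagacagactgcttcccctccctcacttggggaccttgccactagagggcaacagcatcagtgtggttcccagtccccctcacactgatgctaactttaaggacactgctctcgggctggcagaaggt
A match is a string of letters and not a shown binding site.

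S100a11, S100a10 and S100a6 made up 98.0% to 99.8% of the summed level of the 7 genes in every library. That sum was 1376 and 927 in the DMSO libraries (replicates 1 and 2) and 792 and 546 in the P+B libraries, with 1093 and 720 for PFI-3 and 1140 and 780 for BI-9564. The sum was thus lowest with P+B within each replicate series. Of the 7 genes, 4 averaged 5 or more across all libraries and were tested (S100a3, S100a6, S100a10 and S100a11), and S100a1, S100a4 and S100a13 did not reach it.

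**Figure D1:**
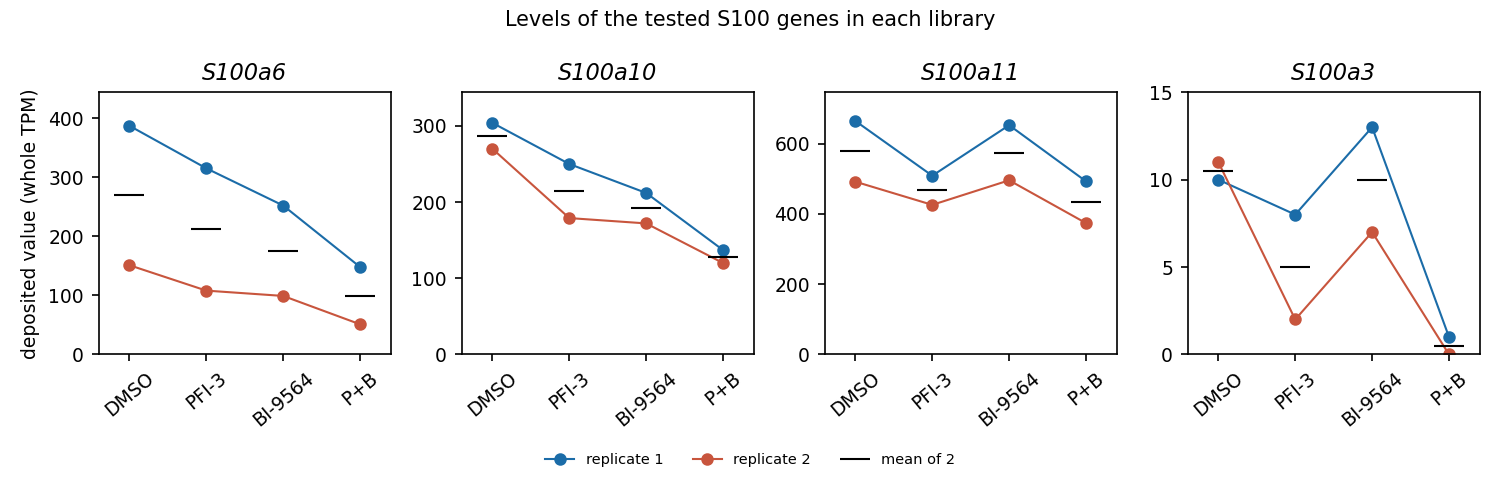
Deposited values (whole TPM, linear axes from 0, one scale per gene) of the 4 tested S100 genes by treatment. Points are libraries, lines join libraries of the same replicate number and black bars are means of 2. S100a10 stepped down from DMSO (304 and 270) to P+B (137 and 120), and S100a6 was far lower in replicate 2 of every treatment.

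S100a10 (p11) is the S100 protein whose EF-hands no longer bind calcium and which is held in a complex with annexin A2 at the plasma membrane. Its level was 304 and 270 in the DMSO libraries, 250 and 179 under PFI-3, 212 and 172 under BI-9564 and 137 and 120 under P+B (replicates 1 and 2). Both P+B libraries lay below all 6 other libraries, and the DMSO libraries lay above all others. The group means were 287 ± 24 (DMSO), 215 ± 50.2 (PFI-3), 192 ± 28.3 (BI-9564) and 129 ± 12 (P+B; SD, n = 2 each).

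With P+B, S100a10 fell by 1.15 on the log2 scale against DMSO (SE 0.17, 95% interval -1.54 to -0.77; limma, adjusted p = 0.0094, no replicate block). Log2 differences here are of log2(value + 1), which understates changes of low genes, and a gene was called where the adjusted p-value was under 0.05 and the fold change at least 1.5. The replicate block is the same fit with the replicate number as a further term, which compares libraries of the same number. The P+B library held 45.1% of the DMSO level in replicate 1 and 44.4% in replicate 2. In bulk RNA, fewer cells that express a gene and less RNA per cell cannot be told apart. Without DMSO replicate 1 the adjusted p was 0.0911, without DMSO replicate 2 it was 0.0677, without P+B replicate 1 it was 0.0631 and without P+B replicate 2 it was 0.111, each a fit in which the lone library is assumed to vary like the other groups. It was 0.0524 with no filter on low values and 0.100 with only the 4 libraries compared. With the replicate block S100a10 remained called without any one of the 8 libraries, at differences of -1.23 to -1.08.

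With a single compound S100a10 did not pass. The difference from DMSO was -0.44 with PFI-3 (SE 0.17, adjusted p = 0.669) and -0.58 with BI-9564 (SE 0.17, adjusted p = 0.186). With the replicate block the BI-9564 difference had an adjusted p of 0.0259 at a fold change of 0.668, just short of the fold threshold. Against the single compounds, P+B stood at -0.72 relative to PFI-3 (adjusted p = 0.0903, and 0.00625 with the replicate block, which made it a call) and at -0.57 relative to BI-9564 (adjusted p = 0.401, and 0.0319 with the block, at a fold change of 0.673).

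S100a11 (calgizzarin) binds annexin A1 and had the highest level of the 7 genes per transcript length. It stood at 665 and 492 in the DMSO libraries, 509 and 426 under PFI-3, 653 and 496 under BI-9564 and 493 and 374 under P+B. The BI-9564 libraries nearly matched the DMSO libraries of the same number, at 98.2% and 101% of them. The PFI-3 libraries held 76.5% and 86.6% and the P+B libraries 74.1% and 76.0% of the DMSO level.

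No comparison of treatments called S100a11. Its difference was -0.41 with P+B against DMSO (SE 0.20, adjusted p = 0.258). With the replicate block the SE was 0.057 and the adjusted p 0.00521, but the fold change, 0.751, stayed short of the threshold. With BI-9564 the difference from DMSO was -0.01, with a 95% interval of -0.46 to 0.44 without the block and -0.14 to 0.13 with it. P+B and BI-9564 differed by -0.41 (adjusted p = 0.682, and 0.0257 with the block), while P+B and PFI-3 differed by -0.12 (adjusted p = 0.813, and 0.270 with the block).

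S100a6 (calcyclin) is known from proliferating and epithelial cells and binds calcyclin-binding protein, Sugt1 and annexin A11. It was at 387 and 151 in the DMSO libraries, 315 and 108 under PFI-3, 252 and 99 under BI-9564 and 148 and 51 under P+B. Within each replicate series the order was DMSO, PFI-3, BI-9564, P+B from high to low, and across series the P+B library of replicate 1 (148) nearly matched the DMSO library of replicate 2 (151). The group means carried large spreads, 269 ± 167 (DMSO), 212 ± 146 (PFI-3), 176 ± 108 (BI-9564) and 99.5 ± 68.6 (P+B; SD, n = 2 each).

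The S100a6 call depended on whether replicate numbers were used to pair the libraries. Without the block the P+B difference from DMSO was -1.46 (SE 0.71, 95% interval -3.10 to 0.17, adjusted p = 0.271). With the replicate block it was -1.46 with an SE of 0.078 and an adjusted p of 0.000187, which ranked 7 of 10222 genes by p. The P+B library held 38.2% of the DMSO level in replicate 1 and 33.8% in replicate 2. Without the block, leaving out a DMSO or P+B library moved the difference to between -2.22 (without P+B replicate 1) and -0.70 (without P+B replicate 2), with -0.79 without DMSO replicate 1 and -2.14 without DMSO replicate 2. With the block the range was -1.52 to -1.41 and the call remained without any one library.

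With BI-9564 S100a6 stood at 65.1% and 65.6% of the DMSO libraries of the same number, a difference of -0.61 (adjusted p = 0.737, and 0.0213 with the replicate block, where it was called). That call was lost without any one of the 8 libraries (adjusted p 0.0697 to 0.194). With PFI-3 the libraries held 81.4% and 71.5%, a difference of -0.39 (adjusted p = 0.966, and 0.160 with the block). P+B differed from PFI-3 by -1.08 (adjusted p = 0.494, and 0.00152 with the block) and from BI-9564 by -0.85 (adjusted p = 0.862, and 0.00635 with the block), both calls with the block.

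The order DMSO, PFI-3, BI-9564, P+B from high to low held in both replicate series for S100a6 and S100a10, and for 2.05% of all tested genes. It did not hold for S100a11 or S100a3. This order was chosen for description after the values were seen.

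S100a3 is rich in cysteine, binds zinc as well as calcium and is known from the hair cuticle. It was low throughout, at 10 and 11 in the DMSO libraries, 8 and 2 under PFI-3, 13 and 7 under BI-9564 and 1 and 0 under P+B. The P+B libraries lay below all others, and the BI-9564 libraries lay on either side of the DMSO libraries. The means were 10.5 ± 0.71, 5 ± 4.24, 10 ± 4.24 and 0.5 ± 0.71 in that order (SD, n = 2 each).

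The P+B difference of S100a3 from DMSO was -3.02 (SE 0.59), described here without weight on its p-value. It was -3.67 with a pseudocount of 0.5 and -1.5 with a pseudocount of 5. Against BI-9564 the P+B libraries differed by -2.90 (SE 0.59, adjusted p = 0.157). That adjusted p was 0.0317 with the replicate block, and the call was lost without any one library. Against PFI-3 the difference was -1.88 (adjusted p = 0.169, and 0.0513 with the block). PFI-3 and DMSO differed by -1.14 (SE 0.59, adjusted p = 0.788), with the PFI-3 libraries apart at 8 and 2.

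**Figure D2:**
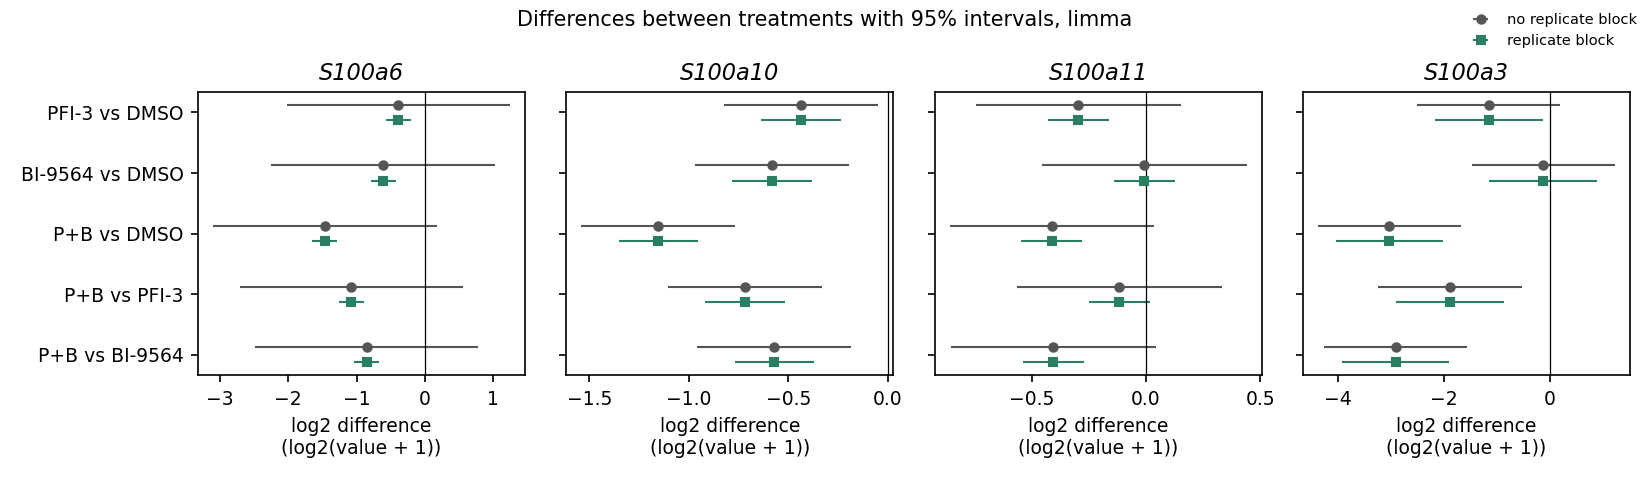
Log2 differences of log2(value + 1) between treatments for the 4 tested S100 genes, with 95% intervals from limma without (grey circles) and with (green squares) the replicate number as a block; the horizontal scale differs between genes. For S100a6 the P+B interval against DMSO spanned -3.10 to 0.17 without the block and -1.65 to -1.28 with it.

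With S100a3 set aside, because its fall was known when it was chosen, P+B against DMSO called 1 of the 3 other tested S100 genes as lower (S100a10), where 2.72% of all 10222 tested genes were called lower. Those 3 were also chosen with results of these libraries known, so this count and those below are a description and not support. The fit with the replicate block called 2 of the 3, S100a6 being added, beside 4.1% of all genes. Their median difference was -1.15, beside 0.06 over all genes. For 2 of the 3, S100a10 and S100a6, both P+B libraries lay below both DMSO libraries, which was so for 18.9% of all tested genes. With S100a3 included, which passed in both fits, the counts were 2 of 4 and 3 of 4, the median was -1.31 and 3 of 4 did not overlap. The S100a3 call was lost without either library of DMSO, BI-9564 or P+B (adjusted p 0.0545 to 0.172) and, in the blocked fit, without DMSO replicate 2 (0.0674), P+B replicate 1 (0.0640) or P+B replicate 2 (0.0846).

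PFI-3 against DMSO called none of the 4 with limma, and 0% of all tested genes were called lower, without or with the block. S100a10 had an unadjusted p under 0.05 without the block, as did 6.79% of all genes, and all 4 had one with it, as did 11.2%. The median difference of the 4 genes was -0.41, beside 0.02 over all genes. Both PFI-3 libraries lay below both DMSO libraries for S100a3 and S100a10, which held for 12.8% of all genes.

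BI-9564 against DMSO called none of the 4 without the block, where 0.0783% of all genes were called lower. S100a10 had an unadjusted p under 0.05, as did 14.9% of all genes. With the block it called S100a6, beside 1.04% of all genes. S100a10 was the gene of the 4 whose BI-9564 libraries both lay below both DMSO libraries, as did 18.3% of all genes. The median difference of the 4 genes was -0.35, beside 0.02 over all genes.

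Against PFI-3, P+B called none of the 4 without the block, where 1.05% of all genes were called lower. S100a3 and S100a10 had an unadjusted p under 0.05, as did 16.6% of all genes. With the block it called S100a6 and S100a10, beside 2.4% of all genes. The S100a10 call was lost without either library of PFI-3 or P+B and the S100a6 call without PFI-3 replicate 1, PFI-3 replicate 2 or P+B replicate 2. S100a3 and S100a10 had both P+B libraries below both PFI-3 libraries, beside 18.9% of all genes.

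Against BI-9564, P+B called none of the 4 without the block, beside 0.196% of all genes called lower, and S100a3 and S100a10 had an unadjusted p under 0.05, as did 7.97% of all genes. With the block it called S100a3 and S100a6, beside 0.724% of all genes, and S100a6 was lost without either library of BI-9564 or P+B. Both P+B libraries lay below both BI-9564 libraries for S100a3, S100a10 and S100a11, and for 13.7% of all genes. The comparisons with DMSO share the DMSO libraries and those with P+B share the P+B libraries, so they are not separate evidence.

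BI-9564 against PFI-3 compared the single compounds directly and called none of the 4 S100 genes, where 0.108% of all genes were called in either direction without the block and 1.48% with it. With limma, 0 of the 4 had an unadjusted p under 0.05 without the block and 3 had one with it (S100a3, S100a6 and S100a11), where 14.2% and 20.1% of all genes had one. S100a11 stood higher with BI-9564 by 0.29 (95% interval -0.16 to 0.74, and 0.16 to 0.42 with the block, where the adjusted p was 0.0486 at a fold change of 1.22). S100a10 differed by -0.15 (95% interval -0.53 to 0.24) and S100a6 by -0.22 (-1.86 to 1.41). With the block these intervals were -0.35 to 0.05 and -0.40 to -0.04 (limma, adjusted p = 0.390 and 0.170).

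P+B was also set against the sum of the separate differences of PFI-3 and BI-9564 from DMSO. This sum is a fair reference only if each compound had the same dose alone and in P+B, which is not known for these libraries. In the paper's colony assay each compound had a lower dose in the combination than alone. No S100 gene and 0% of all genes were called, without or with the block. By unadjusted p under 0.05, limma gave 0 of the 4 without the block and S100a3 and S100a6 with it, beside 3.26% and 5.75% of all genes. Without the block, S100a10 departed from the sum by -0.14 (95% interval -0.68 to 0.41), S100a6 by -0.47 (-2.78 to 1.85), S100a11 by -0.11 (-0.74 to 0.52) and S100a3 by -1.76 (-3.67 to 0.15). With the block the intervals were -0.72 to -0.21 for S100a6 and -3.19 to -0.32 for S100a3 (limma, adjusted p = 0.771 and 0.820). Those of S100a10 (-0.42 to 0.15) and S100a11 (-0.30 to 0.08) still spanned 0.

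The replicate series themselves differed for these genes. S100a6 was lower in replicate 2 in every treatment, at 39.0% of replicate 1 under DMSO, 34.3% under PFI-3, 39.3% under BI-9564 and 34.5% under P+B. In the fit with treatment as a term, replicate 2 stood at -1.44 against replicate 1 (SE 0.055, adjusted p = 0.000114), which ranked S100a6 at 1 of 10222 genes by p. Without any one library the difference was -1.47 to -1.40 and the call remained. The series difference of S100a6 (fold change 0.369) was as large as its P+B difference (0.362).

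S100a6 was the called gene of the 4, beside 0.763% of all genes called lower in replicate 2. S100a11 was at -0.37 (SE 0.041, adjusted p = 0.00496) and S100a10 at -0.28 (SE 0.061, adjusted p = 0.0488), both short of the fold threshold, and S100a3 at -0.82 (SE 0.31, adjusted p = 0.197). S100a6, S100a10 and S100a11 were lower in replicate 2 in all 4 treatments, as were 12.8% of all tested genes.

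Jun and the stem cell markers moved with the series as well. Jun stood at 1970, 1570, 2071 and 1569 in replicate 1 (DMSO, PFI-3, BI-9564, P+B) and at 2877, 2227, 3011 and 2159 in replicate 2, a difference of 0.51 (SE 0.027, adjusted p = 0.000382, short of the fold threshold). The 10 stem cell markers summed to 4991, 5302, 4449 and 4607 in replicate 1 and to 3790, 4282, 3378 and 3598 in replicate 2. All 10 of these markers were lower in replicate 2 on average, beside 51.3% of all genes. Of the 10, 2 were called, Nanog and Zfp42, beside 0.763% of all genes called lower. Between treatments, all 10 stood higher with PFI-3 than with DMSO (median difference 0.42, none called with limma). Of them, 4 had an unadjusted p under 0.05, beside 6.79% of all genes. With BI-9564, 8 stood lower (median -0.16, none called) and 2 had such a p, beside 14.9% of all genes. With P+B, 5 stood lower (median -0.02) and Tdgf1 was called lower, beside 2.72% of all genes. With the block, Tdgf1 was also called lower with BI-9564, beside 1.04% of all genes. Esrrb and Klf2 were then called higher with P+B, beside 299 of all 10222 genes. The part of these markers in the differences of the S100 genes, between series or treatments, was not tested. Between treatments Jun held 79.6% and 75.0% of the DMSO level under P+B, 79.7% and 77.4% under PFI-3 and 105% and 105% under BI-9564, and its part in the S100 differences was not tested. For Jun with P+B the difference was -0.37 (adjusted p = 0.437, and 0.00156 with the block, short of the fold threshold).

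**Figure D3:**
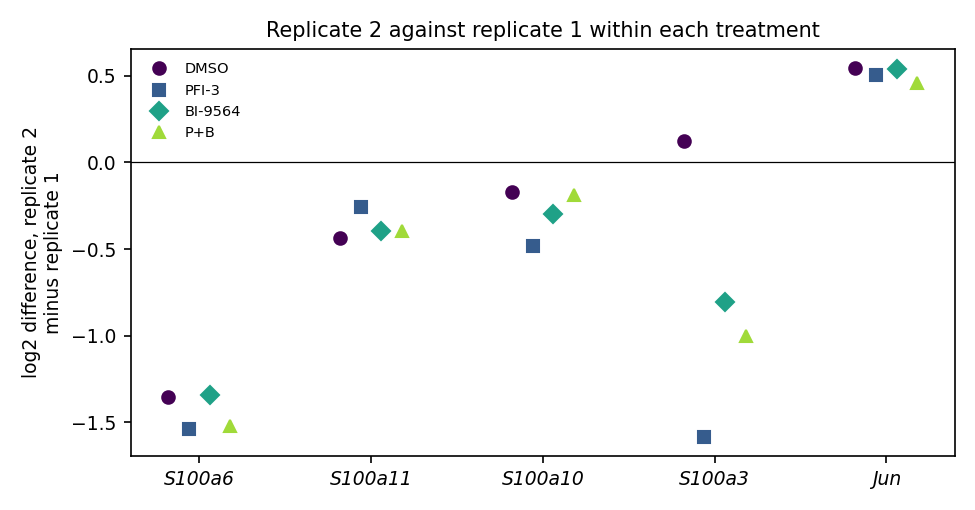
Log2 difference of replicate 2 from replicate 1, on log2(value + 1), within each treatment, for the 4 tested S100 genes and the induced gene Jun. The 4 treatments of S100a6 lie together between -1.54 and -1.34, and those of Jun lie above 0.

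Markers of other cell types were mostly low. Fibroblast markers summed to 2 to 5 with DMSO and 2 to 3 with P+B, primitive endoderm markers to 4 to 5 and 6 to 10, trophoblast markers to 19 to 20 and 23 to 27, mesoderm markers to 0 to 1 and 4, and neural markers to 57 to 72 and 90 to 109. The neural sum was mostly Tubb3 (54 and 69 with DMSO, 87 and 103 with P+B). In the trophoblast list Cdx2 (1 and 0, then 5 and 10) and Ascl2 (5 and 4, then 10 and 7) stood higher with P+B. Hand1 (4 and 6, then 1 and 1) and Gata3 (6 and 2, then 1 and 1) stood lower, and Eomes (4 and 7, then 6 and 8) overlapped. Tubb3, the tested gene of the neural list, rose with P+B by 0.62 (adjusted p under the threshold without and with the block). The part of these markers in the S100 differences was not tested.

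Proteins that S100 proteins bind were looked up from a list of 29 genes, of which 18 were tested. The list was made with earlier results of these data known, so its counts are a description. The paper itself reports Anxa1 as repressed by these compounds. With P+B against DMSO 2 of 18 were called lower and none higher (Anxa1 and Ahnak), beside 2.72% of all genes called lower, and with the replicate block 3 were (Anxa2 added), beside 4.1%. The median of the 18 differences was -0.11, beside 0.06 over all genes. PFI-3 and BI-9564 each called none of the 18 against DMSO with limma, without or with the block, and 3 and 2 of them had an unadjusted p under 0.05 without the block, where 6.79% and 14.9% of all genes had one.

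The called partners are placed here with S100a10 and S100a11, by general knowledge and not by these data. The placing is not exclusive, as an annexin may bind other S100 proteins as well. Anxa2 encodes annexin A2, the membrane-binding partner of S100a10, and was at 118 and 90 in the DMSO libraries, 88 and 52 under PFI-3, 94 and 51 under BI-9564 and 63 and 27 under P+B. Its P+B difference was -1.30 (SE 0.43, adjusted p = 0.125, and 0.00413 with the block), and replicate 2 fell by 0.80 against replicate 1 (adjusted p = 0.015), so Anxa2 also differed between series. Ahnak encodes a giant scaffold protein that docks on the S100a10 and annexin A2 complex, and was at 140 and 122 under DMSO and at 49 and 42 under P+B, and fell by 1.51 (SE 0.13, adjusted p = 0.00144). Anxa1 encodes annexin A1, a partner of S100a11, and was at 63 and 52 under DMSO and at 21 and 12 under P+B. It fell by 1.78 (SE 0.27, limma adjusted p = 0.0105).

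None of the partners placed here with S100a6 was called with P+B, without or with the block. With the block each had an adjusted p under 0.05 (limma) but stayed short of the fold threshold. Cacybp, the calcyclin-binding protein, was at 172 and 207 under DMSO and 145 and 156 under P+B (-0.33, adjusted p = 0.111, and 0.0454 with the block). Sugt1 was at 113 and 97 with DMSO and at 76 in both P+B libraries (-0.46, adjusted p = 0.0498, and 0.0159 with the block). Anxa11 was at 93 and 99 and at 65 and 71 (-0.49, adjusted p = 0.0686, and 0.0203 with the block). Of the partners known for S100a4, Myh9, the heavy chain of non-muscle myosin, was at 196 and 176 under DMSO and 158 and 140 under P+B. Its difference was -0.32 (adjusted p = 0.212, and 0.026 with the block, short of the fold threshold). Trp53, which encodes p53, was at 459 and 475 and at 439 and 414 (-0.13, adjusted p = 0.301, and 0.164 with the block).

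**Figure D4:**
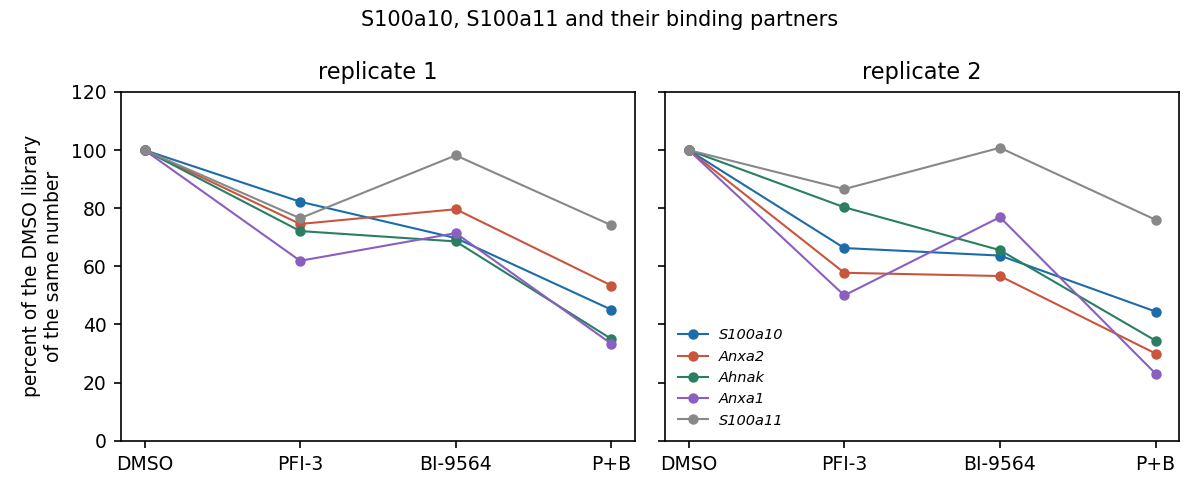
Levels of S100a10, S100a11 and binding partners as percent of the DMSO library of the same replicate number, by treatment. In replicate 1, P+B left S100a10 at 45.1%, Ahnak at 35.0%, Anxa2 at 53.4% and Anxa1 at 33.3%, and in replicate 2 at 44.4%, 34.4%, 30.0% and 23.1%, while S100a11 was at 74.1% and 76.0%.

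The other S100 genes followed were near or under the level that could be tested. S100a1, known from heart and skeletal muscle where it acts on calcium release, was at 2 and 2 in the DMSO libraries, 4 and 5 under PFI-3, 4 and 2 under BI-9564 and 4 and 0 under P+B. Both PFI-3 libraries lay above both DMSO libraries, as they did for 16.5% of the tested genes, of which S100a1 was not one. With genes of a mean of at least 1 tested, that difference was 0.87 (SE 0.71, adjusted p = 0.898). S100a13, which takes part in the release of Fgf1 and interleukin 1α from cells, was at 8 and 1, 7 and 0, 6 and 4, and 6 and 1 in the same order. It was lower in replicate 2 in each of the 4 treatments, with a difference of -1.87 in that wider fit (SE 0.41, adjusted p = 0.0938), and its P+B difference from DMSO was -0.18 (SE 1.12, adjusted p = 0.954). S100a4 (metastasin), which binds non-muscle myosin, was listed at 0 in 7 libraries and at 3 in P+B replicate 1.

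**Figure D5:**
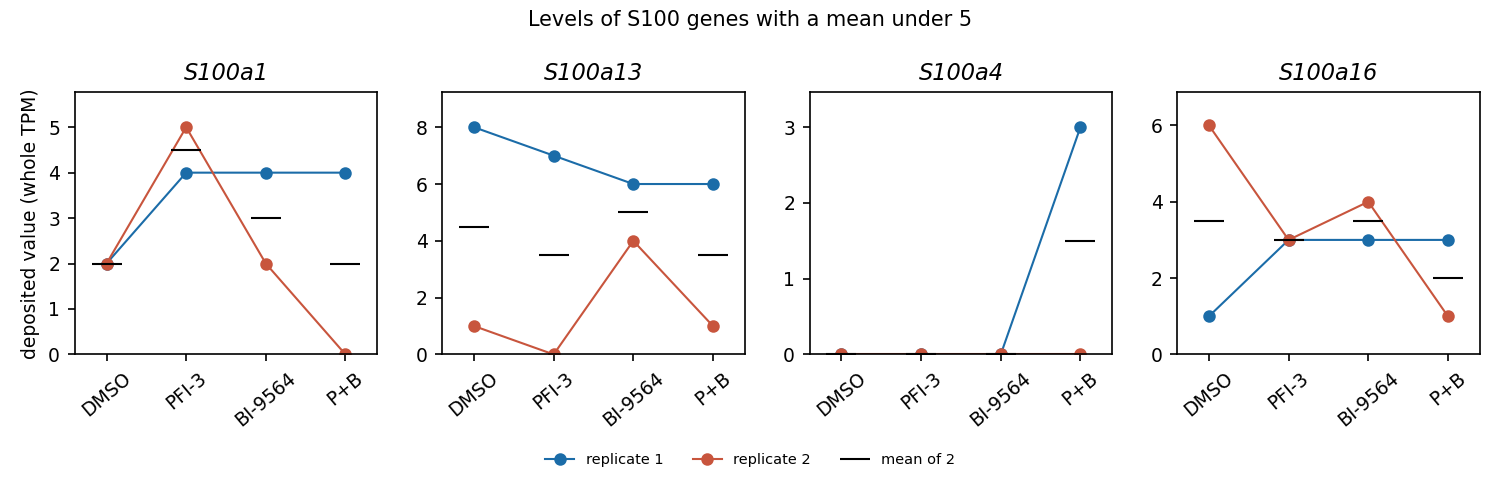
Deposited values (whole TPM, linear axes from 0) by treatment for S100a1, S100a13 and S100a4 and for S100a16, an S100 gene outside the 7. Points are libraries, lines join libraries of the same replicate number and black bars are means of 2. No value exceeds 8, and S100a4 is above 0 in P+B replicate 1 only.

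Outside the 7, a list of 11 other mouse S100 genes had rows for 10, none of which could be tested. S100a16 was at 1 to 6, S100a14 at 0 to 3, S100a8 and S100z were each at 1 in a lone library, and S100a2, S100a5, S100a7a, S100a9, S100b and S100g were listed at 0 throughout. Of the cluster on chromosome 3, the genes between S100a13 and S100a3 and those beyond S100a6 were thus at 6 or less in all libraries, while S100a6 reached 387.

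Other coding genes within 200 kb of the first run numbered 17, of which 7 were tested and lie beyond S100a1. With P+B against DMSO limma called 0 of the 7, without or with the replicate block, beside 409 and 718 of all 10222 genes. An unadjusted p under 0.05 was reached by 0 of the 7, beside 22.6% and 29.2% of all genes. The differences of the 7 were -0.29 to 0.31. Among so few genes, a count of 0 called is close to the share over all genes. Chtop, 1536 bases from S100a1, was at 167 and 189 under DMSO and 159 and 164 under P+B (-0.14, adjusted p = 0.404). Snapin was at 36 and 30 and at 31 and 34, and Ilf2 at 176 and 176 and at 154 and 170. Around S100a11 and S100a10, none of the 7 other coding genes could be tested.

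The tested genes most like each S100 gene over the 8 libraries were named by Pearson's r of log2(value + 1), as a description in which all points share the libraries and the differences between series. For S100a10 these were Krt18 (r = 0.99), a keratin of simple epithelia, Hbegf (r = 0.99), a growth factor, and Myof (r = 0.98), a membrane-repair protein of the ferlin family. Krt18 was at 103 and 89 under DMSO against 27 and 20 under P+B, and Hbegf at 45 and 32 against 8 and 6. For S100a6 they were Erbb3 (r = 0.99), Vgll4 (r = 0.99) and Ly6a (r = 0.98), the last at 43 and 11 under DMSO and 10 and 1 under P+B. For S100a11 they were Irs2 (r = 0.98), Cdh3 (r = 0.97) and Slc38a2 (r = 0.96). For S100a3 they were Mrpl44 (r = 0.97), Anxa1 (r = 0.96) and Tle3 (r = 0.96).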

How the data were processed

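RNA-seq of 8 libraries was analysed. Per the labels' methods and the paper, libraries were made with a VAHTS mRNA-seq kit and sequenced on a NextSeq500. The submitters' processing notes name bcl2fastq, Bowtie2 2.2.5, RSEM 1.3.0 and mm10. The deposited table has 50600 gene rows. Its values are a score, that is, TPM which the authors rounded or cut to whole numbers. All values were whole, 94 rows had a repeated name and 33075 rows were at 0 in all libraries. Depth is not kept in TPM, so count models were not used.

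The log2(value + 1) of the 10222 genes that averaged 5 or more was fitted by limma 3.58.1 (R 4.3.3; lmFit, eBayes with a trend), all 4 groups in a joint model with no block. Benjamini-Hochberg adjustment ran over all tested genes of a comparison, and a call needed an adjusted p under 0.05 together with a change of 1.5-fold or more. With 2 libraries against 2, an exact permutation test cannot go below p = 0.333, so none was run for single genes. The procedure was tested on simulated data. Tables were made with Python 3.11.15 and pandas 2.3.3.

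The labels number the replicates alike in every group. Across genes, replicate 2 minus replicate 1 was positively correlated for each of the 6 pairs of groups (Pearson's r 0.143 to 0.236). Libraries of the same number were therefore treated as pairs in the blocked fit, as a reading of the data. The fit without the block does not pair them. The blocked fit, which takes the replicate number as a term, is given where it changed a call.

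The 7 genes and all lists (partners, other EF-hand genes, markers, other S100 genes) were chosen with earlier results of these data known, by general knowledge of the proteins. Named genes were all 7 with all values, other S100 genes, partners that passed or that belong to a described S100 gene (8 at most), 3 EF-hand genes, tested neighbours nearest to a member, and the 3 most alike genes of each tested member. Positions are from GENCODE M21, promoter windows from RefSeq on GRCm38.p6. Protein sequences were not used here.

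Other settings tried were the block, a pseudocount of 0.5 or 5, a minimum mean of 1 or 20 or no minimum, quantile normalization, median centring, limma with no trend, a fit of the 4 libraries of a comparison alone, calls by adjusted p without a fold, a threshold of 0.01, and each library left out in turn. Leaving out each library, and quantile normalization, in the blocked fit were added after seeing the data.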

Additional observations from a re-analysis of the deposited data

How the results depend on the processing

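Counts of the 4 tested S100 genes called are given first, with the block added where the numbers pair the libraries. For P+B against DMSO the count was 2. It was 3 with the replicate block, 1 with a mean of at least 20 (which S100a3 does not reach), 1 with an adjusted p under 0.01, 0 with no filter, 0 with only the 4 libraries compared, and 0 to 2 without any one library. With the replicate block the count was 1 for BI-9564 against DMSO, 2 for P+B against PFI-3 and 2 for P+B against BI-9564, each 0 without it. With no fold threshold, 3 genes differed between replicate 2 and replicate 1 rather than 1. In the fits with the replicate block, leaving out a library gave 0 for BI-9564 against DMSO, 0 to 2 for P+B against PFI-3 and 0 to 1 for P+B against BI-9564. Quantile normalization with the replicate block gave 0 for BI-9564 against DMSO, as S100a6 then stood at -0.56. Over all genes, P+B against DMSO called 327 of 6521 with a mean of at least 20 and 124 of 10222 with an adjusted p under 0.01. It called 201 of 17525 with no filter and 0 of 10222 with only the 4 libraries compared. Leaving out any library also lowered the calls over all genes in each comparison named above. Except with a mean of at least 20, the smaller counts are thus not particular to the S100 genes. With that minimum, 327 of 6521 is a larger share than the 409 of 10222 of the main fit. The S100 count fell there as S100a3 was no longer tested. The cause of these changes was not tested. The block changed no other call of the 4 tested S100 genes, and it was not run for S100a1, S100a4 and S100a13. No call changed direction under any alternative. Some differences that were not called did change sign when a library was left out. Without the block, S100a6 with BI-9564 against DMSO went from -0.61 to 0.07 without DMSO replicate 1. With PFI-3 against DMSO it went from -0.39 to 0.38 without PFI-3 replicate 2. Among all genes the block moved the calls from 409 to 718 for P+B against DMSO, from 11 to 156 for BI-9564, from 134 to 351 for P+B against PFI-3, from 20 to 82 for P+B against BI-9564 and from 11 to 151 for BI-9564 against PFI-3. Whole-number TPM limit S100a1, S100a3, S100a4 and S100a13 most, since a step of 1 is a large share of their level, and the depth behind each value is unknown.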

Other observations

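Other proteins with EF-hands, the calcium-holding fold of S100 proteins, were read from a list of 31 genes, of which 24 were tested. This list, too, was made with earlier results of these data known, so its counts are a description. With P+B against DMSO 4 of 24 were called lower and none higher, beside 2.72% of all genes called lower, and the median of the 24 differences was 0.04. Capn2, the large subunit of the calcium-activated protease calpain 2, was at 30 and 35 in the DMSO libraries, 17 and 21 under PFI-3, 17 and 21 under BI-9564 and 9 and 7 under P+B, and fell by 1.90 with P+B (SE 0.20, limma adjusted p = 0.00282). Efhd1, a mitochondrial calcium-binding protein, was at 11 and 17 under DMSO and 2 and 3 under P+B. It was at 5 and 8 under PFI-3 and at 5 in both BI-9564 libraries. With P+B it fell by 2.08 (SE 0.35, limma adjusted p = 0.0161). It reached the minimum mean of 5 only through its DMSO values, so its fall and its place among the 4 called are a description. Actn1, which encodes the actin crosslinker α-actinin 1, was at 236 and 244 under DMSO and 143 and 154 under P+B and fell by 0.69 (SE 0.10, adjusted p = 0.0103). Between the replicate series limma called 0 of the 24, 7 had an unadjusted p under 0.05, beside 19.8% of all genes, and 13 stood lower in replicate 2, beside 51.3% of all genes.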
